A study of Drosophila melanogaster with 9 samples.

Results

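The genes klhl10, Cul3, Cyt-c-d and Bruce act in the caspase pathway that operates when Drosophila spermatids are separated into single sperm. They were taken by name from a table of testis transcript levels, and all 4 were among its 7539 genes. The table compares testes of flies that lack the miR-310 cluster, a group of microRNA genes that runs from miR-310 to miR-313, with testes of control flies, and asks which transcripts differ without these microRNAs. The mutant group is labelled Dm310s mutant and the other group Control. Both were built from the stock EP(2)2587, so that background is common to the 2 groups. Each group has 2 RNA-seq libraries from testes of adults aged 3 to 5 days that were kept at 25 °C. Whether separate flies were dissected for each library is not stated, and p-values therefore reflect library-to-library spread that may be purely technical. How many independent mutant lines were used is not given in the labels.

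Spermatids of the fly develop as a cyst of cells joined by cytoplasmic bridges. Individualization closes these bridges: actin cones move along the bundle of tails, strip away excess cytoplasm and wrap each sperm in its own membrane. Caspases, the proteases of programmed cell death, are active in this process although the cell survives. A ubiquitin ligase made of the scaffold Cul3 and the substrate adaptor Klhl10 targets the inhibitor Bruce, and Cyt-c-d, a cytochrome c of the testis, is needed for caspase activation.

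The 4 transcripts had nearly the same level in mutant and control testes, with group differences between -0.01 and 0.02 on the log2 scale. Cul3 and Cyt-c-d stood far above the median gene of the table, while Bruce stood just below it and klhl10 further below. Levels are log2 of reads scaled to gene length and to the library total (RPKM), which allows genes to be compared per length. The sorted values of the libraries also differ by at most 0.044, the pattern that quantile normalization leaves. Every gene of the table lies above a log2(RPKM) of 1 in each library, so ranks are among such genes only. Means of RPKM and their ratios were taken on the log2 scale and turned back, so they are geometric means. Differences are mutant minus control on that log2 scale, tested with limma, and a gene was called at a Benjamini-Hochberg adjusted p under 0.05. None of the 4 was called by limma, 0 had an unadjusted p under 0.05, and 0 had groups that did not overlap. Over all genes, limma called 113 (1.50%), 41 higher (0.544%) and 72 lower (0.955%) in the mutant. An unadjusted p under 0.05 was found for 17.7% of all genes and non-overlapping groups for 50.4%.

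Klhl10 is the adaptor that brings substrates to the ligase in spermatids. The level of klhl10 was 2.73 and 2.84 in the control libraries and 2.84 and 2.71 in the mutant libraries, as log2(RPKM). The groups overlapped fully, with 1 library near 2.8 and 1 near 2.7 in each. The mean was 2.79 ± 0.08 (SD, n = 2) in control and 2.78 ± 0.09 (n = 2) in mutant testes. The difference was -0.01 (SE 0.09, 95% interval -0.25 to 0.22, limma adjusted p 0.960). On the linear scale that interval runs from -15.8% to 16.5%. At a mean of 6.88 RPKM, klhl10 was the lowest of the 4, and 40.2% of all genes lay at or below it.

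Cul3 is the cullin scaffold, which also serves other adaptors in many tissues and has a testis form needed for individualization. Its level was 6.27 and 6.28 in control and 6.33 and 6.26 in mutant libraries, as log2(RPKM). Mutant replicate 1 was the highest library and mutant replicate 2 the lowest, so the control values lay inside the mutant range. The means were 6.27 ± 0.004 (SD, n = 2) and 6.30 ± 0.04 (n = 2), a difference of 0.02 (SE 0.05, 95% interval -0.11 to 0.16, limma adjusted p 0.858). The interval corresponds to -7.46% to 11.7%. Cul3 had the highest level of the 4, at a mean of 77.9 RPKM, and 92.4% of genes lay at or below it. The table gives 1 value per gene, so the testis form and the other forms of Cul3 cannot be told apart.

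Cyt-c-d is a cytochrome c, the electron carrier of mitochondria that is also a cofactor of caspase activation. Its level was 5.94 and 5.91 in control and 5.96 and 5.92 in mutant libraries, as log2(RPKM). The 4 values lay close together and the groups overlapped. The means were 5.92 ± 0.03 (SD, n = 2) and 5.94 ± 0.03 (n = 2), with a difference of 0.01 (SE 0.05, 95% interval -0.12 to 0.15, limma adjusted p 0.926). This interval corresponds to -8.15% to 11.0%. The mean was 61.0 RPKM, at or above that of 89.7% of genes. The RefSeq annotation of the Release 6 assembly places Cyt-c-d partly over CG31808 on chromosome arm 2L, and the sources used here do not say whether strand was used in counting. CG31808 had a lower level than Cyt-c-d, 3.17 ± 0.05 in control and 3.10 ± 0.11 in mutant testes (SD, n = 2 each).

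Bruce is a very large ubiquitin-conjugating protein with a baculovirus inhibitor repeat that holds back cell death, and its loss disturbs sperm formation. Its level was 3.09 and 3.20 in control and 3.16 and 3.10 in mutant libraries, as log2(RPKM). Both mutant values lay between the control values. The means were 3.14 ± 0.07 (SD, n = 2) and 3.13 ± 0.04 (n = 2), a difference of -0.01 (SE 0.08, 95% interval -0.22 to 0.20, limma adjusted p 0.964). The interval corresponds to -13.9% to 14.5%. At a mean of 8.80 RPKM, Bruce lay at or above 48.5% of genes.

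**Figure D1:**
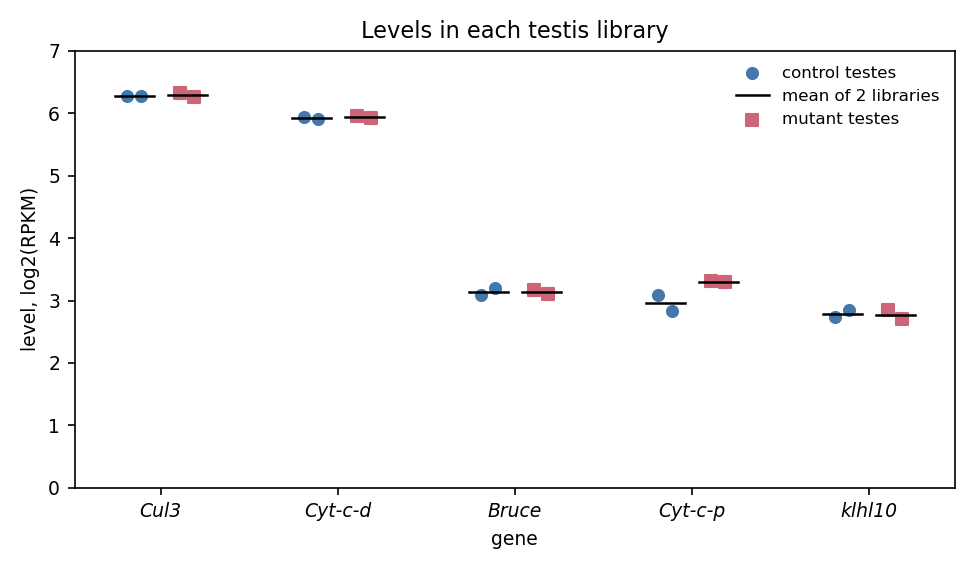
Level in log2(RPKM) of Cul3, Cyt-c-d, Bruce, Cyt-c-p and klhl10 in each control (circles) and mutant (squares) testis library, with black lines for the mean of the 2 libraries. The groups overlap for Cul3, Cyt-c-d, Bruce and klhl10, while both mutant values of Cyt-c-p (3.31 and 3.29) lie above the control values (3.09 and 2.83).

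The spread between libraries of a genotype was small for Cyt-c-d and Cul3: 10.9% and 12.3% of all genes had a smaller pooled SD. It was in the middle of the table for Bruce (35.0%) and klhl10 (55.0%). The absolute difference between genotypes was smaller in 6.05% of all genes for Bruce, 8.10% for klhl10, 8.17% for Cyt-c-d and 13.4% for Cul3. When each library was left out in turn, the difference of klhl10 ran from -0.08 to 0.05, that of Cul3 from -0.0077 to 0.05, that of Cyt-c-d from -0.0093 to 0.04 and that of Bruce from -0.06 to 0.04. For all 4 genes the sign of the difference changed with the library left out.

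The order of the levels was Cul3, then Cyt-c-d, then Bruce, then klhl10. Cul3 exceeded Cyt-c-d in all 4 libraries, by 0.33 to 0.37 log2 units, a mean ratio of 1.28. The step from Cyt-c-d down to Bruce was the widest, at 2.71 to 2.85 log2 units, or 6.94-fold in the mean. Cyt-c-p, the cytochrome c gene used throughout the body, lay beside Bruce. The gap between Bruce and Cyt-c-p ran from -0.19 to 0.36 log2 units over the libraries, so these neighbours did not differ beyond their spread. The gap between Cyt-c-p and klhl10 ran from -0.01 to 0.58 and was positive in 3 of 4 libraries, so these neighbours did not differ beyond their spread either. The lowest library of Bruce (3.09) was above the highest of klhl10 (2.84).

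The proportion of ligase scaffold to adaptor transcript overlapped between genotypes. The level of Cul3 was above that of klhl10 by 3.53 and 3.43 log2 units in control and by 3.48 and 3.56 in mutant libraries, with overlapping groups. The mean ratio of RPKM was 11.2 in control and 11.5 in mutant testes. The mean log2 ratio differed by 0.04 between genotypes (exact permutation test, two-sided p = 0.667, n = 2 each). This was 1 of 4 ratios computed, and with 2 libraries against 2 the smallest p this test allows is 0.333.

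The same test was applied to the paired cytochrome c genes, which are neighbours on arm 2L. The level of Cyt-c-p was 3.09 and 2.83 in the controls and 3.31 and 3.29 in the mutants, as log2(RPKM). Both mutant values lay above both control values, as happens in one direction or the other for 50.4% of all genes. The difference of 0.34 (SE 0.11, 95% interval 0.07 to 0.61) was not called by limma (unadjusted p 0.0220, adjusted p 0.210). Without control replicate 2 it was 0.21 (adjusted p 0.595). The log2 ratio of Cyt-c-d to Cyt-c-p was 2.85 and 3.07 in control and 2.65 and 2.62 in mutant libraries. As a ratio of RPKM it was 7.80 in control and 6.22 in mutant testes, and the log2 ratio differed by -0.33 (exact permutation test, two-sided p = 0.333, the smallest possible), or by -0.22 without control replicate 2. The genes are paralogs, and how reads that match both were counted is not stated.

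A list of the ligase and its control was then examined, which includes klhl10 and Cul3 themselves. It also holds ring proteins, the inhibitor, activators, other adaptors and the enzymes that attach or remove the ubiquitin-like protein Nedd8 on cullins. Further regulators, such as ntc, PI31 and p47, are in it too. Of 32 listed genes 30 were in the table, and limma called 0 higher and 0 lower, beside 0.544% and 0.955% of all genes. An unadjusted p under 0.05 was found for 2 (6.67%, beside 17.7% of all genes), CSN1b and ntc. The median difference was -0.02, beside 0.0045 over all genes, and with 1 library left out it ranged from -0.04 (control replicate 1 or mutant replicate 1) to 0.02 (control replicate 2). Of the 30, 13 (43.3%) had groups that did not overlap, beside 50.4% of all genes.

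The inhibitor soti, a pseudosubstrate that blocks the Klhl10 ligase, was the most abundant transcript of the ligase list. Its level was 7.67 and 7.72 in control and 7.76 and 7.69 in mutant libraries, as log2(RPKM), so the groups overlapped. The difference was 0.03 (SE 0.06, limma adjusted p 0.841), and 98.0% of all genes lay at or below soti. The mean RPKM of soti was 30.0 times that of klhl10 in control and 30.9 times in mutant testes. The log2 ratio differed by 0.04 (exact permutation test, two-sided p = 0.667, n = 2 each).

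Roc1b, the ring protein that partners Cul3 in the male germ line, stood at 6.07 and 6.16 in the controls, against 6.15 and 6.02 in the mutants, as log2(RPKM). That level is close to that of Cul3. Its more widely used relative Roc1a stood lower, at 3.07 and 3.33 in the controls, against 3.34 and 3.18 in the mutants. Groups overlapped for both genes. The Roc1b to Roc1a ratio of RPKM was 7.53 in control and 7.09 in mutant testes, and the log2 ratio differed by -0.09 (exact permutation test, two-sided p = 0.667, n = 2 each).

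The Krebs cycle enzyme subunit ScsbetaA, listed in the table as skap and known to activate the ligase at spermatid mitochondria, was at 5.89 and 5.90 in the controls, against 6.02 and 6.01 in the mutants. The mutant libraries were both higher, and the difference of 0.12 (SE 0.05) was not called by limma (adjusted p 0.304). Duba, a deubiquitinating enzyme needed for caspase activation in spermatids and listed as CG6091, differed by 0.03 (SE 0.06, adjusted p 0.869). The deubiquitinating enzyme gene scny differed by -0.06 (SE 0.08, adjusted p 0.753). ntc encodes the F-box protein Nutcracker, which is required for caspase activation in spermatids. It stood at 5.63 in both control libraries and at 5.48 and 5.49 in the mutant libraries, a difference of -0.14 (SE 0.05, unadjusted p 0.0373, limma adjusted p 0.258).

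The widest difference of all listed genes was that of CSN1b, a subunit of the COP9 signalosome, which removes Nedd8 from cullins. CSN1b stood at 3.76 and 3.83 in the controls, against 3.31 and 3.32 in the mutants, as log2(RPKM). The mutant libraries were both lower by more than the spread within either genotype. The difference of -0.48 (SE 0.07, 95% interval -0.66 to -0.30) narrowly missed the threshold in limma (adjusted p 0.0513). Of the 12 alternatives, 2 called CSN1b in limma: robust moderation (adjusted p 0.0403) and the replicate number as a block (0.0498). The others that kept all libraries missed the threshold, with limma adjusted p from 0.0515 to 0.0603. With 1 library left out, the difference ran from -0.52 to -0.44. The other 7 measured subunits of the complex, encoded by alien, CSN3, CSN4, CSN5, CSN6, CSN7 and CSN8, differed by -0.14 to 0.26, none of them called.

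**Figure D2:**
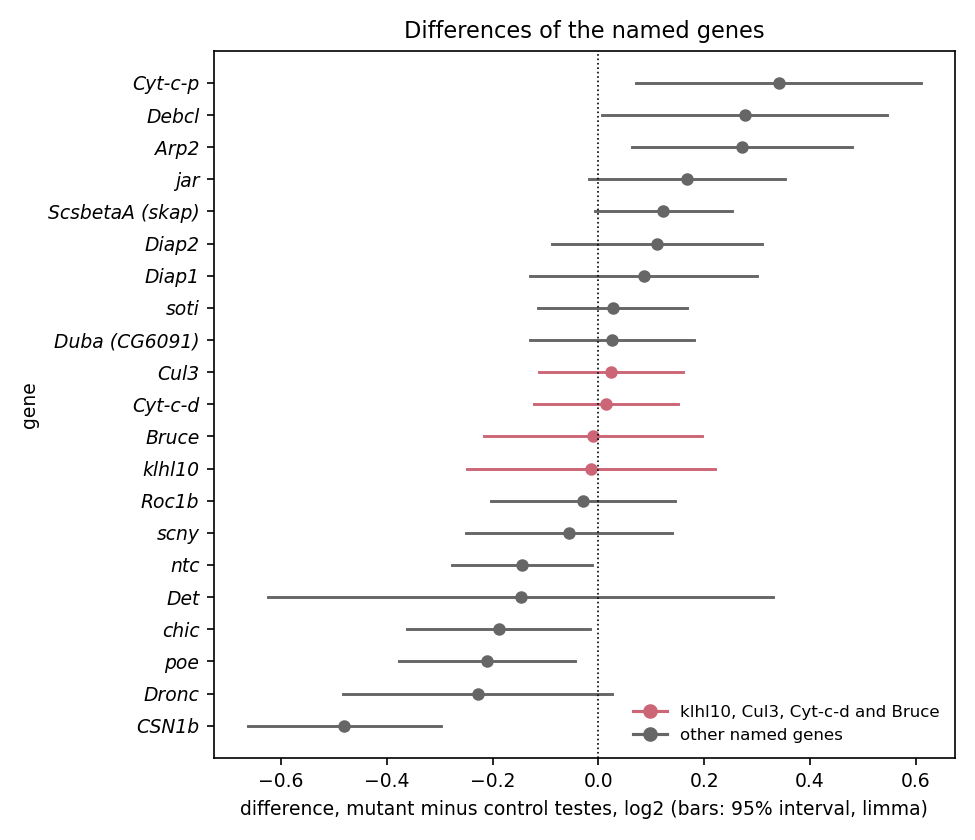
Difference between mutant and control testes on the log2 scale, with its 95% interval from limma, for klhl10, Cul3, Cyt-c-d and Bruce (red) and the other named pathway genes (grey). The 4 red intervals are centred near 0 (-0.01 to 0.02), while CSN1b lies lowest at -0.48 and Cyt-c-p highest at 0.34.

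Other adaptors of the Kelch class that can pair with Cul3 lay on both sides of klhl10, with dbo above it and KLHL18 and kel below it. The mean level over the 4 libraries was 3.45 for dbo, 1.82 for KLHL18 and 1.48 for kel, as log2(RPKM), against 2.78 for klhl10. Their differences between genotypes were 0.07, -0.18 and 0.12, with limma adjusted p from 0.358 to 0.745.

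Of 14 listed genes of cytochrome c, the apoptosome and caspases, 7 were in the table. Limma called 0 of the 7 in either direction, beside 1.50% of all genes. An unadjusted p under 0.05 was found for 2 of the 7 (28.6%, beside 17.7% of all genes), Cyt-c-p and Debcl, and groups did not overlap for 4 (57.1%, beside 50.4%). The median difference was 0.02, and with 1 library left out it ranged from -0.0093 (mutant replicate 1) to 0.06 (control replicate 2). The initiator caspase gene Dronc was at 1.74 and 1.83 in the controls, against 1.64 and 1.47 in the mutants, as log2(RPKM), close to the lowest value of the table. Both mutant values of Dronc were lower, with a difference of -0.23 (SE 0.10, limma adjusted p 0.327), or -0.15 without mutant replicate 2. Debcl, a Bcl-2 family gene that promotes cell death, differed by 0.28 (SE 0.11, unadjusted p 0.0459, adjusted p 0.276), by 0.17 without mutant replicate 1 and by 0.38 without mutant replicate 2. Cchl, which attaches heme to cytochrome c, had a mean level of 5.69, near that of Cyt-c-d, and differed by 0.02 (SE 0.08, adjusted p 0.913). The effector caspase genes Drice and Dcp-1 and the apoptosome gene Dark were not analysed here; each gene of the table had a log2(RPKM) above 1 in every library.

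Among the inhibitors of apoptosis, Diap2 had the highest mean level (4.38), followed by Bruce (3.14), Det (2.49) and Diap1 (2.26), as log2(RPKM). Of 9 listed inhibitors and antagonists 5 were in the table. Limma called 0 of the 5 in either direction (1.50% of all genes), and 0 had an unadjusted p under 0.05 (17.7% of all genes). Their median difference was 0.0091, and it was 0.0014 without control replicate 1, 0.05 without control replicate 2 or mutant replicate 1, and 0.02 without mutant replicate 2. Diap1, the main inhibitor of fly caspases, was at 2.19 and 2.25 in the controls, against 2.34 and 2.27 in the mutants. Both mutant libraries were slightly higher, with a difference of 0.09 (SE 0.09, limma adjusted p 0.652). Leaving out 1 library moved it between 0.05 (without mutant replicate 1) and 0.12 (without mutant replicate 2). Diap2 differed by 0.11 (SE 0.08, adjusted p 0.514), by 0.03 without mutant replicate 2 and by 0.20 without mutant replicate 1. Det, which encodes Deterin, differed by -0.15 (SE 0.19, adjusted p 0.734), and HtrA2, a mitochondrial protease that antagonizes the inhibitors, by 0.0091 (SE 0.07, adjusted p 0.963).

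**Figure D3:**
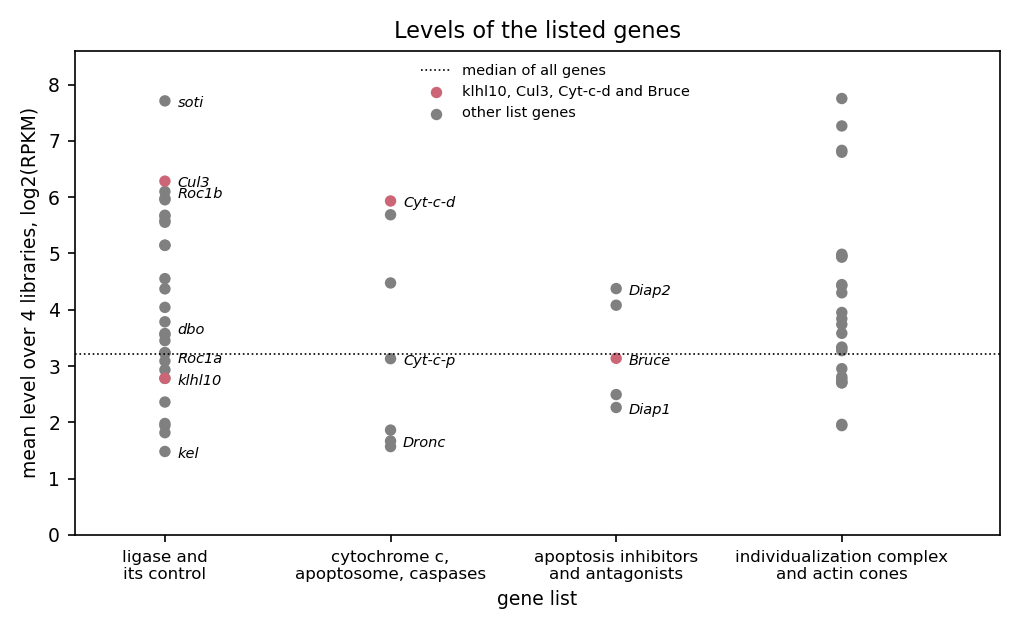
Mean level over the 4 testis libraries, in log2(RPKM), of every measured gene of the 4 pathway lists, with klhl10, Cul3, Cyt-c-d and Bruce in red and a dotted line at the median of all genes (3.21). Cul3 (6.28) and Cyt-c-d (5.93) lie above the line, and Bruce (3.14) and klhl10 (2.78) below it.

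The last list held genes of the individualization complex, the moving actin cones that carry out the separation. It also held further genes, such as Chc, Osbp, Taz and Bug22, so its values are not those of the cones alone. Of 27 listed genes 26 were in the table, and limma called 0 in either direction, beside 1.50% of all genes. An unadjusted p under 0.05 was found for 3 (11.5%, beside 17.7% of all genes), Arp2, poe and chic. Groups did not overlap for 15 (57.7%, beside 50.4% of all genes). The median difference was 0.05, beside 0.0045 over all genes, with 18 members positive and 8 negative against 3870 and 3667 of all genes. It fell between 0.03 (mutant replicate 2 left out) and 0.07 (control replicate 1 or mutant replicate 1 left out). jar, the myosin VI that stabilizes the cones, was at 3.60 and 3.71 in control and at 3.82 in both mutant libraries, as log2(RPKM). The difference of jar was 0.17 (SE 0.07, limma adjusted p 0.325). Arp2, a subunit of the actin-nucleating Arp2/3 complex, differed by 0.27 (SE 0.08, adjusted p 0.200). The profilin gene chic differed by -0.19 (SE 0.07, adjusted p 0.258), and poe (purity of essence), whose loss disrupts individualization, by -0.21 (SE 0.07, adjusted p 0.211).

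Over the 4 lists together, 68 of 82 genes were measured, and limma called 0, beside 113 (1.50%) of all genes. At that share, a count of 0 in lists of this size does not set them apart from all genes. An unadjusted p under 0.05 was found for 7 of the 68 (10.3%), against 17.7% of all genes. Groups did not overlap for 34 (50.0%), beside 50.4% of all genes. None of klhl10, Cul3, Cyt-c-d and Bruce is marked in the table as a predicted target of either arm of miR-313. Targets of the other microRNAs of the cluster were not examined here. Of the 68 list genes, 4 (5.88%) are marked for miR-313-3p and 2 (2.94%) for miR-313-5p, against 6.45% and 3.20% of all genes. scny is the 1 gene of the ligase list marked for both arms.

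**Figure D4:**
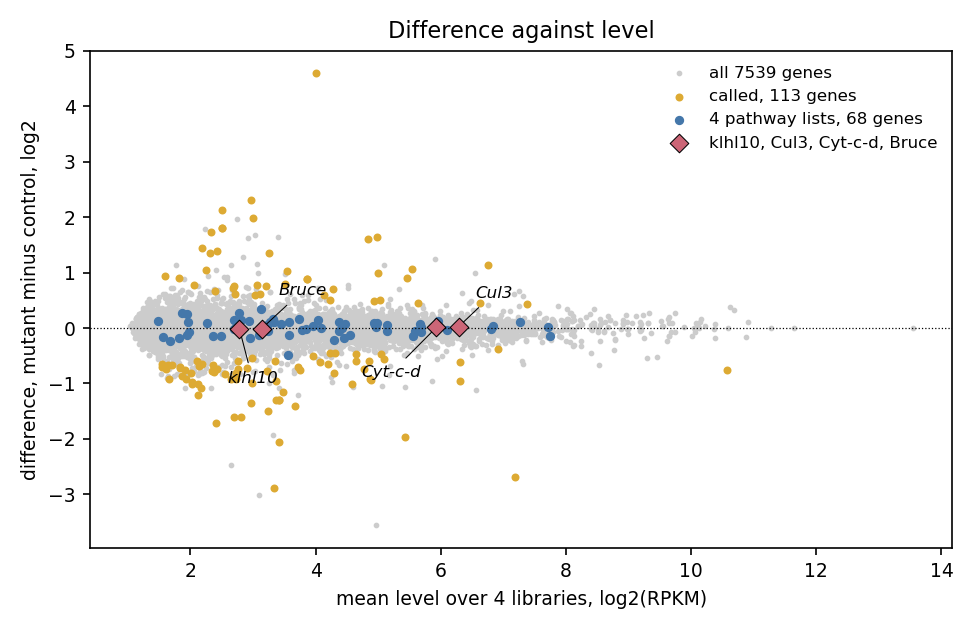
Difference between mutant and control testes (log2) against mean level (log2(RPKM)) for all 7539 genes (grey), the 113 called genes (yellow), the 68 measured genes of the 4 pathway lists (blue) and klhl10, Cul3, Cyt-c-d and Bruce (red diamonds). The red diamonds lie on the zero line at both low and high levels, and 0 of the blue genes is called.

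Genes with the most similar pattern were sought as those with the smallest Euclidean distance over the 4 libraries after each gene was centred on its own mean. For klhl10 these were aurA, RhoGAP92B and CG15429, at distances of 0.0057 to 0.010 log2 units. For Cul3 they were ATP7, Mapmodulin and CG8031 (0.0075 to 0.0094). For Cyt-c-d they were CG14835, CG11601 and ND-23 (0.0072 to 0.013). For Bruce they were CG12866, Droj2 and Cdc5 (0.0078 to 0.010). At a wider distance of up to 0.1 log2 units lay 806, 1475, 1362 and 1105 genes for klhl10, Cul3, Cyt-c-d and Bruce. None of the 4 shared an identical profile with another gene.

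The tissue label was checked against markers. Of 22 testis germline markers 20 were in the table, with a median level of 7.16. Their summed RPKM, on the log2 scale, was 12.29 to 12.36 in control and 12.40 to 12.41 in mutant libraries. The germline markers did not rise together: 9 were higher and 11 lower in the mutant, with a median difference of -0.0069. All 20 accessory gland markers were also present, with summed levels of 13.61 to 13.63 in control and 13.48 to 13.59 in mutant libraries, so these samples hold transcripts of that gland as well. The highest of them, Mst57Da (11.65) and Mst57Db (11.27), had the same value in every library. The sum therefore cannot show a change in these genes. The gland markers did not fall together: single differences ran from -0.75 (SP) to 0.66 (Acp76A), with a median of 0.01. SP was called lower by limma (adjusted p 0.0314), the 1 gland marker called. Of 13 gut markers 6 were present, and their summed level was 5.37 to 5.49 in control and 7.02 to 7.77 in mutant libraries. All 6 gut markers were higher in the mutant, by 0.59 to 4.59. Limma called 2 of them, alphaTry and LysD, beside 0.544% of all genes called higher. Of 6 somatic cyst markers only the gene so (sine oculis) was present (1.62 to 1.78 in control, 1.81 to 1.94 in mutant). Of 8 fat body markers only Adh was present, at 3.36 to 3.49 in control and 4.22 to 4.39 in mutant libraries, and limma called it higher (adjusted p 0.0251). The ejaculatory (3 of 4), muscle (3 of 8) and hemocyte (1 of 4) sums overlapped between genotypes. The part of these shifts in the differences of Cyt-c-p, CSN1b or other list genes was not tested. In such bulk samples, fewer cells of a type and less RNA per cell cannot be told apart. Across genes, which do not count as independent replicates, the Pearson correlation was 0.994 between controls, 0.993 between mutants and 0.983 to 0.988 across genotypes. The deleted microRNA genes were not analysed here, and they gave no check of the genotype labels.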

How the data were processed

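Testis RNA-seq of 2 mutant and 2 control libraries was used; the small RNA libraries of the series were not used here. Per the file headers, the authors deposited a log2(RPKM) value for each gene and library. The submitters' processing notes name TopHat. The TopHat version, the counter used and the build were not given in the sources used here. This table holds 7539 genes, each above a log2(RPKM) of 1 in every library. Its sorted columns differ by at most 0.044, the pattern that quantile normalization leaves. No counts are given, so the depth is unknown.

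The genotypes were compared by limma 3.58.1 under R 4.3.3, using eBayes with a mean-variance trend (3.46 prior degrees of freedom) over all genes, with no filter, no pseudocount and Benjamini-Hochberg adjustment over the whole table; the code was tested on simulated data. The members and the 4 gene lists were chosen with earlier results of these data known. Table names were matched by symbol, by an older symbol or by gene ID, and 7408 IDs matched the name table. Named genes were the members, fixed regulators where measured, called list genes, the 3 list genes with the smallest p, and the 3 genes most similar to each member; members of a list that the text sets beside these, such as Roc1a, Cchl, HtrA2, the Kelch adaptors and the COP9 subunits, were named after their values were seen. Replicate numbers were not used to pair the libraries in the main fit. The 12 alternatives covered moderation, a filter on low values, a pseudocount, scaling, shared profiles, the replicate block and leaving out each library.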

Additional observations from a re-analysis of the deposited data

How the results depend on the processing

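None of klhl10, Cul3, Cyt-c-d and Bruce was called by limma under any of the 12 alternatives (11 for klhl10, which the filter on a mean log2(RPKM) of at least 3 removed). Their differences turned sign only when a library was left out: klhl10 ranged from -0.081 to 0.053, Cul3 from -0.0077 to 0.055, Cyt-c-d from -0.0093 to 0.037 and Bruce from -0.064 to 0.042. The signs of soti (-0.0099 to 0.064), CG6091 (-0.025 to 0.075), Roc1b (-0.094 to 0.036) and Det (-0.39 to 0.097) turned in the same way. With 1 library left out, scny ranged from -0.090 to -0.021, and the genotype difference in the log2 ratio from -0.014 to 0.089 for Cul3 to klhl10, 0.0076 to 0.074 for soti to klhl10, -0.17 to -0.0044 for Roc1b to Roc1a and -0.44 to -0.22 for Cyt-c-d to Cyt-c-p. Against 113 genes called (41 higher, 72 lower), the filter left 50 (22 and 28) and leaving out 1 library gave 22 to 99 (8 to 40 higher, 8 to 59 lower). With the replicate number as a block, 238 were called (89 higher, 149 lower). Same-numbered libraries hardly deviated together (correlation 0.060 across genes). With 2 libraries a group, that value cannot show whether libraries were prepared in pairs. The cause of the larger count was not tested. The ligase list gained 1 call, CSN1b, with the replicate block and 1 with robust moderation. The depth is unknown and 2 libraries a group limit the precision.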
